A study of Rattus norvegicus with 18 samples.

Results

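The comparison set newborn rat lung, taken 5 h after birth (P1), against fetal rat lung of gestational day 19 (FD19), in total RNA. Its members are the 6 arrays whose titles name total RNA of P1 or of FD19 lung, 3 of each, among the 18 arrays of the study. The study measured total RNA and RNA from large polysomes, the mRNAs loaded with many ribosomes, on Affymetrix rat expression arrays at FD19, at fetal day 22 (FD22) and at P1. All animals were Wistar rats with no treatment or engineered allele, and 3 litters were used for each stage. Fetuses were delivered by Cesarean section and newborns were born vaginally, so the stage of the animals and the route of delivery cannot be told apart in this comparison. Lungs were frozen whole, and each array therefore averaged all cells of the organ. The 3 total RNA arrays of FD22 lung served only to say whether a net change came before or after birth, or was undone.

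Over this span the lung turns from a growing, liquid-filled organ into one that exchanges gas. Dividing progenitors give way to type II cells, which make surfactant, the lipid and protein film that keeps air spaces open, and to flat type I cells, across which gas diffuses. Capillaries come to lie against this epithelium, fetal glucocorticoids hasten its maturation, and around birth the lung liquid is absorbed through sodium channels and pumps.

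The 18 arrays had the same trimmed mean signal as deposited, and the median signal of the 6 arrays lay between 61.7 and 68.8. Epithelial markers were bright at both stages except Ager, which read 103 to 119 at FD19 and 1593 to 1659 at P1. Of these markers Sftpa1, Sftpb, Sftpd, Scgb1a1 and Ager were called higher at P1 and Sftpc was not called. Nkx2-1, the lung epithelial transcription factor, read 1534 to 1560 at FD19 and 1188 to 1254 at P1, a fall that was not called without P1 replicate 2. Of liver markers, Alb, the plasma albumin, read 97.4 to 135 at FD19 and 81.8 to 111 at P1, Afp and Apoa1 at most 36.6, and the fibrinogen chain Fgg 31.2, 53 and 36.2 at FD19 and 149, 159 and 150 at P1. Transcripts of heart and skeletal muscle were present and uneven: Acta1, skeletal actin, was 944, 143 and 130 on the FD19 arrays and 327, 120 and 104 on the P1 arrays. Of 19 muscle genes measured, 0 were called higher and 1 lower by limma with adjustment over all probe sets, and 5 lower when the replicate number was a block. At an unadjusted p under 0.05, 0 were higher and 4 lower. The muscle genes had a median net change of -0.47 on the log2 scale, and their part in other results was not tested.

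Among the FD22 arrays, which date the changes, replicate 2 stood apart from its partners in liver transcripts. Alb read 103, 5662 and 147 on FD22 arrays 1 to 3, the fetal plasma protein Afp 5.50, 1462 and 4.20 and the apolipoprotein Apoa1 5.30, 293 and 3.40. All 11 genes of a liver and thymus list that had a probe set, including those below the filter on dim probe sets, were highest on this array among the 9 total RNA arrays. The net change does not use this array except in the shared estimate of the spread, and without it 5663 probe sets were called in place of 5671. The dating of changes does use it: of the genes named here, 28 of 38 called after birth alone, 101 of 107 called before birth alone and 4 of 17 called in both steps kept that class without it. Those that lost the class after birth were Csrp1, Dhcr7, Idi1, Ndn, Ndrg1, Nos3, Ppp1r15a, Rcan1, Smad6 and Sqle. Of those called in both steps, Apln, Foxp2, Plat and Tmem100 kept that class. Without this array, Aqp1, Bub1b, Cdk1, Ddc, Dusp1, Epas1, Hbe1, Mcm6, Mki67, Pclaf and Psat1 were called before birth alone. Fos was then called after birth alone and Fgfr2 in neither step. The part of liver transcripts in the step values was not tested.

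Of 11590 genes tested, with 1 probe set for each, 3589 differed between P1 and FD19 at an adjusted p under 0.05 (limma, Benjamini-Hochberg), which is 31.0% of the genes. The 1595 genes called higher at P1 made up 13.8% of the genes tested and the 1994 called lower made up 17.2%, and these shares are the background for every list of genes described here. In the 18 cases where a list had 0 members called in a direction, at most 2 members passed an unadjusted p under 0.05 in that direction. The difference exceeded 2-fold for 615 of the higher and 599 of the lower genes, and 4-fold for 109 and 83. The 3 values of one stage did not overlap the 3 of the other for 3519 of the 3589 called genes, and for 5495 of all 11590 genes (47.4%). The median net change over all genes tested was -0.06. For 6 genes different probe sets were called in opposite directions. Of the genes named here with several probe sets, Sftpb, Eln, Foxf1, Ddc, Pfkfb3, Bmp5, Etv5, Ezh1, Plin2 and Fasn had 1 of 2 called, Vldlr 2 of 4, Abcg1 and Smad6 2 of 3 and Cebpa 1 of 5; the values are those of the brightest. Changes are differences of log2(signal + 5.5), which understate the change of dim genes, and values after ± are standard errors. A change given without the word step is the net change over the whole span, and before birth or after birth beside it says which step was called, not the size of that step. In whole lung, fewer cells of a type and less RNA per cell cannot be told apart. Without the 3 arrays numbered 1 among total RNA and their 3 polysomal partners, which leaves 12 arrays, 4067 probe sets were called in place of 5671.

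The net change is the sum of a step before birth, FD22 minus FD19, and a step after birth, P1 minus FD22, so these 3 comparisons share arrays and are given side by side only. By the same fit the step before birth was called for 2321 genes, 20.0% of those tested, and the step after birth for 572 genes, 4.94%. Among genes with a net change, 1713 were called in the step before birth alone (823 higher, 890 lower), 310 in the step after birth alone (172 higher, 138 lower) and 131 in both steps (67 higher, 64 lower). In another 1425 genes (527 higher, 898 lower) neither step passed the test and only the sum did; the higher ones had medians of 0.34 before and 0.31 after birth, and the lower ones -0.34 and -0.35. In 10 genes the steps were called in opposite directions and a net change was left. The larger share of the net change fell before birth for 1128 of the 1595 higher genes and 1385 of the 1994 lower genes.

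A step that is called beside one that is not does not show that the steps differ. That difference was called for 578 genes, 4.99% of those tested: 307 of the 1713 genes called before birth alone and 56 of the 310 called after birth alone. The smaller classes depended on single arrays. The class after birth held 171 genes without P1 replicate 1, 182 without P1 replicate 3 and 193 without FD22 replicate 2, and the class of both steps held 40 without FD22 replicate 2, 62 without P1 replicate 1, 71 without FD22 replicate 1, 73 without P1 replicate 3, 84 without P1 replicate 2 and 85 without FD19 replicate 3. Over probe sets, the difference between the steps was called for 836, for 303 without FD22 replicate 3, 402 without FD22 replicate 1 and 532 without FD19 replicate 1.

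**Figure D1:**
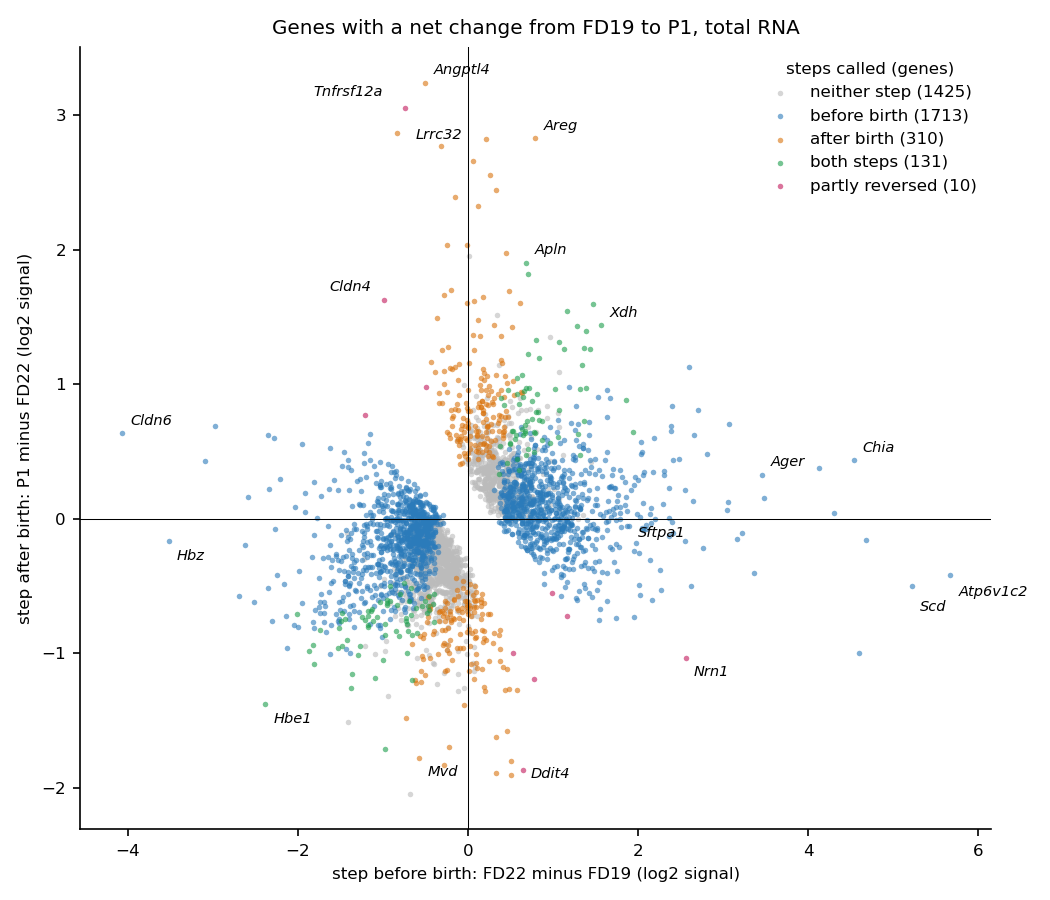
Each point is 1 of the 3589 genes called between P1 and FD19, with the step before birth on the x axis and the step after birth on the y axis (log2 signal differences), coloured by which steps were called. The largest rises and falls, such as Atp6v1c2, Scd and Cldn6, lie far out along the x axis, whereas Angptl4, Areg and Tnfrsf12a rose along the y axis.

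The largest rises came before birth. Atp6v1c2, a subunit of the vacuolar proton pump, read 4.30, 3.30 and 10.7 on the FD19 arrays, 807, 249 and 888 at FD22 and 512, 433 and 336 at P1, a net change of 5.25 ± 0.57 (adjusted p = 1.8e-06). The signal went from near background to at least 249 at FD22 and 336 at P1, and its partners changed less: of 19 pump genes measured, 5 were called higher and 0 lower, 3 with the dimmest probe set for each gene, and the median was 0.31. Chia, an acidic chitinase, went from 56.1, 59.7 and 80.9 to 1682, 2044 and 3130 (4.98 ± 0.54, adjusted p = 1.7e-06). Scd, the stearoyl-CoA desaturase, went from 8.30, 13.6 and 13.6 to 767, 425 and 271 (4.72 ± 0.63, adjusted p = 1.6e-05). Fetub, a fetuin, rose by 4.53, and the secreted phospholipases Pla2g2a and Pla2g1b by 4.51 and 4.35. For these 6 genes the step after birth lay between -0.50 and 0.44 and was not called.

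**Figure D2:**
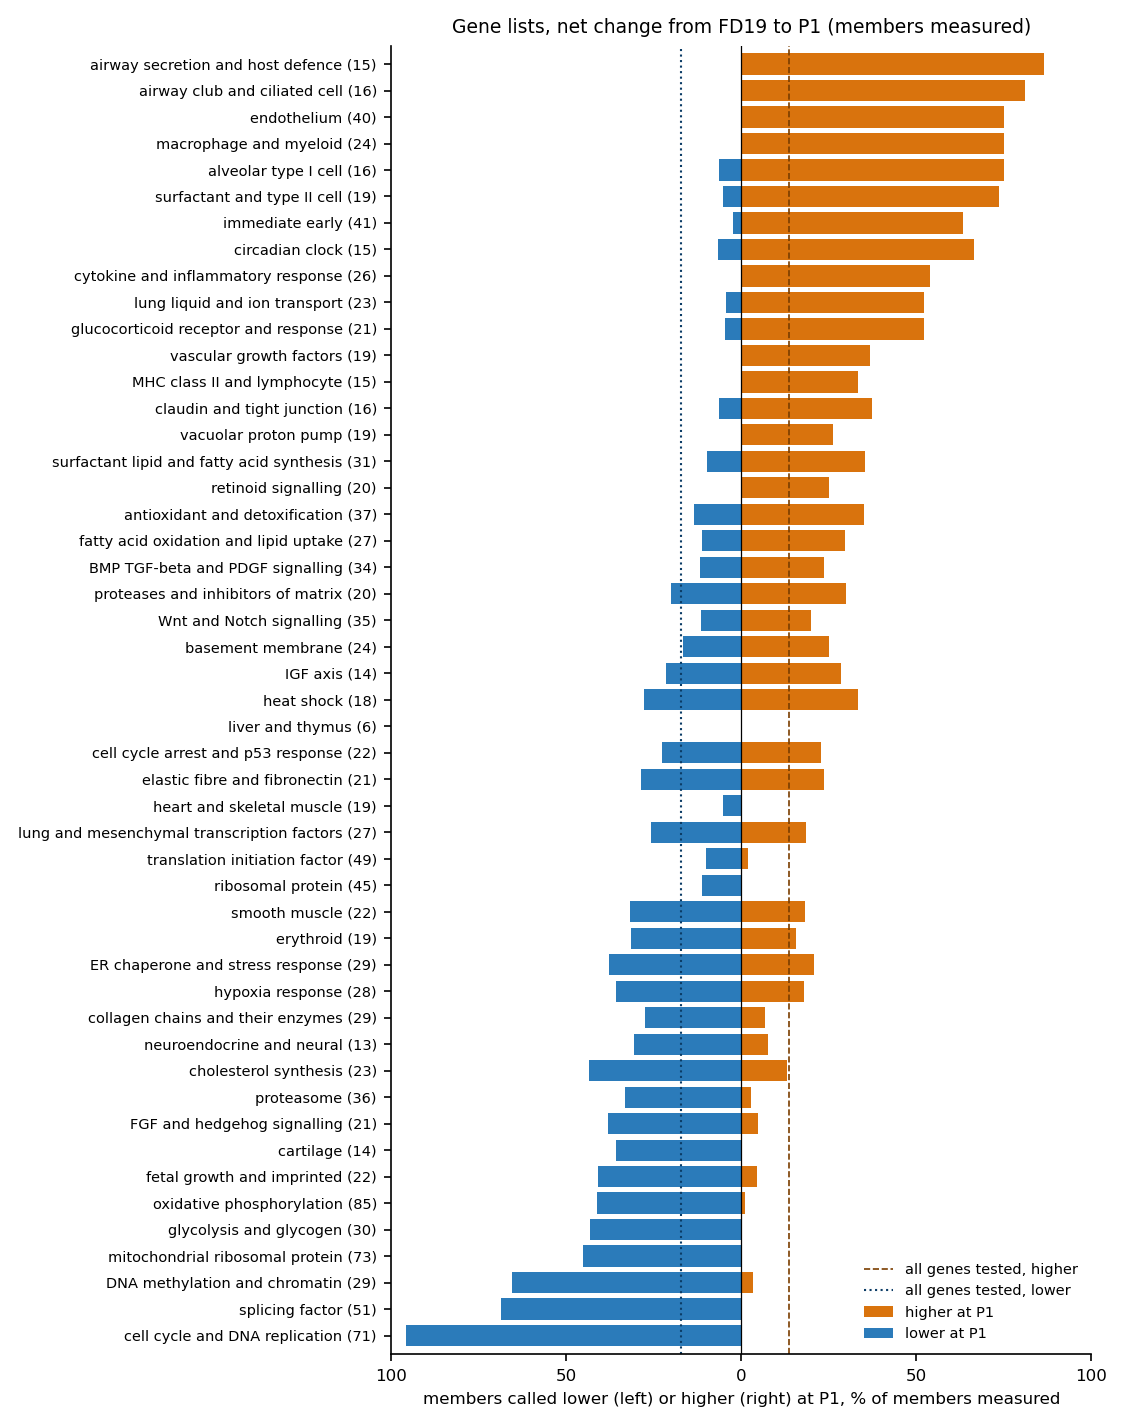
Bars show, for each of 49 gene lists, the percentage of its measured members called higher (right) or lower (left) at P1 than at FD19, with the number measured in brackets; dashed and dotted lines mark 13.8% higher and 17.2% lower among all genes tested. Lists of epithelial, endothelial and myeloid genes lie at the top, and cell cycle, splicing and chromatin genes at the bottom.

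Type II cell genes were higher in the newborn in 14 of 19 cases and lower in 1, with a median net change of 1.00, and all 14 rises were called in the step before birth alone. Among the surfactant proteins, Sftpa1, a collectin that binds microbes, read 706, 819 and 929 at FD19, 3824, 3672 and 3399 at FD22 and 4058, 3703 and 3741 at P1 (2.23 ± 0.12, adjusted p = 2.4e-09). Sftpb, which spreads the surfactant film, went from 905, 1212 and 1080 to 4498, 4989 and 4537 (2.14 ± 0.19, adjusted p = 1.6e-07). Both had reached the newborn level at FD22, with later steps of 0.08 and 0.21. The collectin Sftpd rose by 1.72 ± 0.19, also called before birth. Sftpc, a hydrophobic surfactant protein, was already at 5288, 5673 and 6008 at FD19 and at 5301, 7142 and 7433 at P1, so that the stages overlapped through P1 replicate 1 (0.21 ± 0.21, adjusted p = 0.51). Without that array its net change was 0.37 and not called, and after quantile normalization it was 0.42 and called (adjusted p = 7.4e-04).

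Genes that process and store surfactant rose by very different amounts. Napsa, a protease that matures surfactant protein precursors, went from 417, 166 and 231 to 2581, 2063 and 2406 (3.19 ± 0.31, adjusted p = 6e-07). Lamp3, of the lamellar body membrane, rose by 0.44, a call lost in 6 of 21 alternatives (without FD19 replicate 1 or 3 or P1 replicate 2 or 3 among them), and the phosphate transporter Slc34a2 by 0.67. Abca3, the lipid pump of lamellar bodies, was called in the step before birth (0.70) but its net change of 0.37 ± 0.16 was not called (adjusted p = 0.097). The net change of Abca3 was called in 3 of 21 alternatives. Etv5, a factor downstream of fibroblast growth factors, was the member that fell, by 0.96, which was not called without P1 replicate 3.

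Genes of surfactant lipid and fatty acid synthesis moved less uniformly: 11 of 31 were higher and 3 lower, with a median of 0.27. Besides Scd and Pla2g1b, Lpl, the lipase that frees fatty acids from circulating lipid, rose from 274, 248 and 230 to 1362, 777 and 818 (1.91 ± 0.27, adjusted p = 2.9e-05), and Lpcat1, which makes dipalmitoyl lecithin, rose by 0.96. Fasn, the fatty acid synthase, had a net change of 0.37 that was not called (adjusted p = 0.081, and 0.035 with the replicate block). Elovl6, which lengthens palmitate, fell by 1.43, Plin2, a coat protein of lipid droplets, by 0.83 and the fatty acid carrier Fabp5 by 0.73, a call lost without FD19 replicate 1, P1 replicate 2 or P1 replicate 3 and under both other scalings. Of the rises, 7 were called before birth and 4 in neither step.

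Of type I cell genes, 12 of 16 were higher and 1 lower, with a median of 1.07, and the 12 rises were called before birth alone. Ager, the receptor that marks type I cells in lung, read 119, 117 and 103 at FD19, 1347, 1214 and 1337 at FD22 and 1659, 1640 and 1593 at P1 (3.79 ± 0.25, adjusted p = 9.7e-09), and its steps of 3.46 and 0.33 differed (adjusted p = 6e-04). Hopx, a homeodomain protein, went from 766, 742 and 781 to 3426, 3323 and 3610 (2.17 ± 0.21), and podoplanin (Pdpn), a surface glycoprotein, from 403, 648 and 656 to 1750, 2218 and 2469 (1.92 ± 0.19). Igfbp2, an IGF-binding protein of maturing type I cells, fell by 1.22. The water channel Aqp5 was higher at FD22 and then spread widely, at 26.4, 108 and 35.3 at P1 against 11, 27.7 and 25.2 at FD19, so that no net change was called (1.05 ± 0.47, adjusted p = 0.11).

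Of 16 club and ciliated cell genes 13 were higher and 0 lower, with a median of 1.22, all called before birth alone. The secretoglobin Scgb3a1 went from 337, 278 and 458 to 3125, 3146 and 4263 (3.29 ± 0.34, adjusted p = 9.8e-07) and the mucin Muc5b from 122, 127 and 136 to 1010, 1113 and 1175 (3.05 ± 0.25, adjusted p = 8.1e-08). Scgb1a1, the main club cell product, was bright at FD19 at 2346, 2282 and 2761 and rose by 1.18 ± 0.15. Foxj1, the master regulator of motile cilia, rose by 0.86.

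Among genes of lung liquid and ion transport, all 3 subunits of the epithelial sodium channel were called higher. The pore subunit Scnn1a of the epithelial sodium channel went from 85.9, 81.7 and 88.9 to 1072, 785 and 801 (3.28 ± 0.26, adjusted p = 7.9e-08), while Scnn1g went from 80.1, 84.7 and 88.7 at FD19 to 321, 284 and 285 at FD22 and back to 181, 178 and 166 at P1, a net change of 1.01 ± 0.21 (adjusted p = 0.0012). Scnn1g thus ended above FD19 without overlap after a fall of 0.74 that was not called on its own (adjusted p = 0.052). Scnn1b barely passed, with overlapping stages (0.52 ± 0.19, adjusted p = 0.049), and lost its call in 10 of 21 alternatives. Sgk1, the kinase that keeps the channel at the membrane, rose by 1.96 ± 0.17.

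Water channels rose at different times. Aqp4 read 162, 210 and 201 at FD19, 602, 423 and 854 at FD22 and 1072, 1120 and 1348 at P1 (2.59 ± 0.28), called before birth; Aqp1, the channel of capillary endothelium, rose in both steps (0.67 and 0.66); and Aqp3, found in airway basal cells, went from 44.7, 31.8 and 44.4 at FD19 through 42.4, 47.0 and 38.0 at FD22 to 145, 168 and 116 at P1 (1.70 ± 0.23, adjusted p = 1.8e-05). The pump subunit Atp1b1 rose by 0.57 in small steps that were not called. Cftr, the chloride channel of fluid secretion, rose in a step of 0.88 before birth and fell in a step of -1.04 after it, ending at 140, 215 and 193 against 160, 235 and 219 (net -0.16 ± 0.18, adjusted p = 0.57). In all, 12 of 23 genes of lung liquid transport were higher, 1 was lower and the median was 0.52.

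Claudins seal the gaps between cells. Of 16 tight junction genes 6 were higher and 1 lower (median 0.23), against 13.8% and 17.2% of all genes tested. Cldn6, a claudin of embryonic epithelium, fell from 243, 134 and 234 to 5.10, 8.0 and 6.80 at FD22 and 6.30, 13.9 and 23.3 at P1 (-3.43 ± 0.38, adjusted p = 2.1e-06). Cldn18, of alveolar epithelium, had a net rise of 1.00, called before birth, and Cldn3 one of 0.91, called after it. Cldn4 fell from 185, 148 and 181 to 84.8, 81.4 and 83.1 and then rose to 318, 285 and 214, leaving a net rise of 0.64 ± 0.17 (adjusted p = 0.0088), which was not called without P1 replicate 1.

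**Figure D3:**
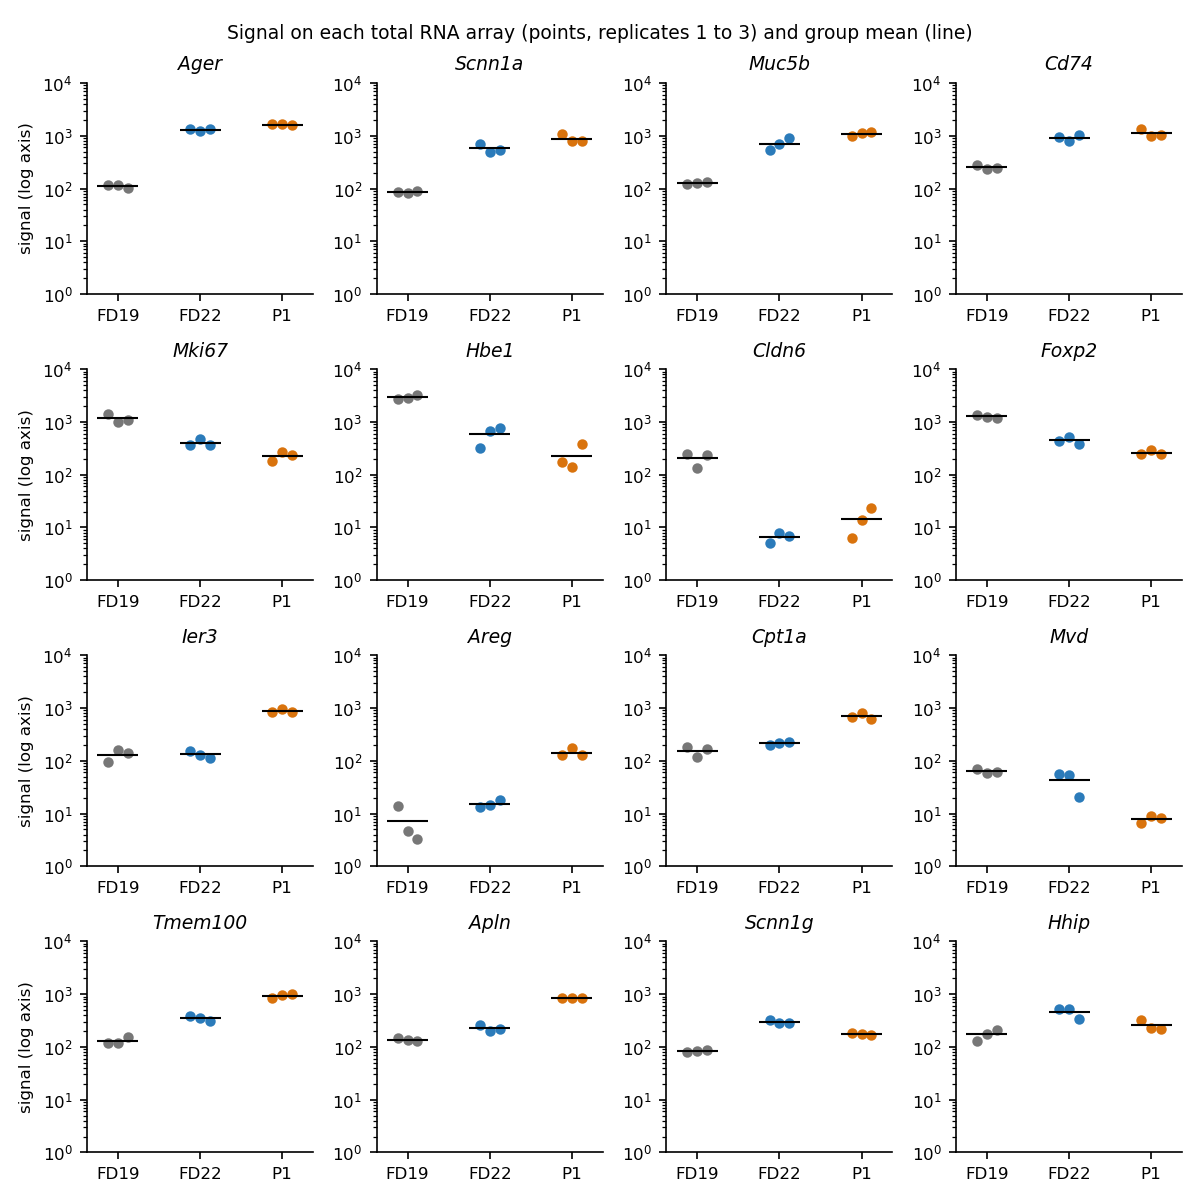
Signal of 16 genes on each total RNA array (points, log axis, replicates 1 to 3 from left to right) with the mean of each stage (line). Ager, Scnn1a, Muc5b and Cd74 had risen by FD22, Mki67, Hbe1 and Foxp2 fell in both steps, Ier3, Areg and Cpt1a were called after birth alone, and Scnn1g and Hhip peaked at FD22. Without FD22 replicate 2, Mki67 and Hbe1 were called before birth alone.

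Endothelial genes were higher in 30 of 40 cases and lower in 0, with a median net change of 1.05. Of these rises, 16 were called before birth alone, 3 after birth alone, 8 in both steps and 2 in neither, and 1 was partly undone; without FD22 replicate 2, 4 were called in both steps. Tmem100, a BMP-dependent endothelial membrane protein, read 118, 121 and 157 at FD19, 390, 361 and 307 at FD22 and 836, 982 and 992 at P1 (2.78 ± 0.17, adjusted p = 4.5e-09), in steps of 1.39 and 1.4. Apln, the peptide ligand of sprouting endothelium, read 149, 134 and 128, then 262, 196 and 216, then 849, 854 and 852 (2.59 ± 0.16, adjusted p = 4.5e-09), and its later step of 1.90 was the larger one (adjusted p of the difference 0.017). The 3 stages of both genes did not overlap.

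Other endothelial rises belonged to enzymes and regulators of the vessel wall. Ace, which makes angiotensin II on lung capillaries, rose from 87.8, 66.6 and 84.7 to 457, 402 and 452 (2.38 ± 0.20), before birth. Epas1, the hypoxia-inducible factor of endothelium, rose from 674, 855 and 746 to 2568, 2815 and 2555 in both steps (1.80 ± 0.13). Eng, a BMP co-receptor, and Nos3, which makes the vasodilator nitric oxide, rose by 1.5 and 0.98, called after birth alone, whereas Edn1, the constrictor endothelin, rose by 1.69, called before birth.

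Among growth factor genes of vessels, 7 of 19 measured were higher and 0 lower (median 0.39), and the best known pair was called before birth without a net change. Vegfa, the main signal for capillary growth, read 998, 871 and 967 at FD19, 1859, 997 and 1505 at FD22 and 1168, 1112 and 1079 at P1, a net change of 0.24 ± 0.18 (adjusted p = 0.35). Its receptor Kdr read 708, 736 and 746, then 1151, 1239 and 1241, then 950, 940 and 801 (0.29 ± 0.13, adjusted p = 0.098). Both had a called first step, of 0.57 and 0.72, and no called net change, although the FD19 and P1 arrays did not overlap.

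Myeloid genes were higher in 18 of 24 cases and lower in 0, with a median of 1.08, and 16 of the rises were called before birth alone. Ptprc, the pan-leukocyte phosphatase CD45, went from 39.5, 50.9 and 49.8 to 163, 136 and 142 (1.55 ± 0.18, adjusted p = 4.7e-06). Lysozyme Lyz2, which is in the list of airway secretion and host defence as well, went from 1687, 1500 and 1633 to 4742, 6214 and 6430 (1.84 ± 0.26). The chemokine Ccl6 rose by 3.77. Complement C1qa, made by tissue macrophages, read 194, 196 and 211 at FD19 and 211, 187 and 198 at P1 (-0.01 ± 0.12), and C1qb, C1qc, Cx3cr1 and Aif1 were not called either. Cd74, the MHC class II chaperone, went from 282, 230 and 242 to 1336, 992 and 1013 (2.12 ± 0.15). It led a list of MHC class II and lymphocyte genes of which 5 of 15 were higher, 3 without the arrays numbered 1, and 0 lower (median 0.51).

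Genes of airway secretion and host defence were among the most uniform lists, with 13 of 15 higher, 0 lower and a median of 1.16. Besides Chia, the chitinase-like Chi3l1 went from 75.0, 48.1 and 52.0 to 1055, 622 and 717 (3.64 ± 0.34, adjusted p = 3.8e-07), and complement C3 from 130, 128 and 150 to 1367, 983 and 1097 (3.02 ± 0.27, adjusted p = 2e-07). The beta-defensin Defb4 was uneven, at 39.7, 697 and 83.1 at FD19 and 1537, 2682 and 1205 at P1 (3.60 ± 0.80, adjusted p = 0.0022). Cytokine and inflammatory genes were higher in 14 of 26 cases and lower in 0 (median 0.84), and in 9 cases under a stricter filter that tests fewer genes. The neutrophil attractant Cxcl1 rose by 3.73 and Il1b by 1.91, both called before birth.

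Genes that respond to glucocorticoids were higher in 11 of 21 cases and lower in 1 (median 0.58), and 8 rises were called before birth alone. Tsc22d3, a direct target that mutes inflammation, went from 847, 866 and 872 to 2076, 1176 and 1601 (0.87 ± 0.17), Klf9 rose by 1.4 and the phosphatase Dusp1 by 2.48, in both steps. Nr3c1, the receptor itself, read 566, 745 and 716 at FD19 and 686, 687 and 642 at P1, which overlap. Fkbp5 and Per1, targets often used as a readout, were not called (0.54 and 0.14). Clock genes were higher in 10 of 15 cases and lower in 1 (median 0.78): the activators Bmal1 and Npas2 rose by 0.85 and 1.33 and the repressor Nr1d2 by 1.37, while the output factor Dbp fell by 0.88, a call lost in 8 of 20 alternatives, the replicate block among them. The time of day at which lungs were taken is not given in the sources used here.

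Immediate early genes, switched on within minutes of a stimulus, were higher in 26 of 41 cases and lower in 1 (median 0.93). Here 12 of the rises were called after birth alone, 3 in both steps (1 without FD22 replicate 2), 5 before birth alone and 6 in neither. Areg, an EGF receptor ligand, read 13.7, 4.60 and 3.30 at FD19, 13.2, 14.8 and 17.9 at FD22 and 126, 176 and 127 at P1 (3.62 ± 0.28, adjusted p = 4.6e-08). Ier3, a survival factor, stayed at 94.8, 157 and 140 and 156, 131 and 115 before birth and reached 824, 950 and 838 (2.71 ± 0.19, adjusted p = 1.5e-08). The steps of both genes differed, with adjusted p = 0.023 for Areg and 2.9e-04 for Ier3.

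Among the AP-1 factors, Fos rose from 49.8, 49.1 and 55.9 through 118, 79.1 and 72.0 to 283, 285 and 416 (2.53 ± 0.24), in both steps, and Fosb and the stress factor Atf3 rose by 2.78 and 2.45, called after birth. Egr1 was level at 215, 213 and 244 and 233, 201 and 243 in the fetuses and read 420, 622 and 502 in the newborns (1.16 ± 0.19). The flow-responsive factor Klf2, by contrast, rose from 330, 374 and 342 to 1038, 730 and 861 already before birth (net 1.85 ± 0.16). Rgs2, which damps G protein signals, fell by 0.59, called after birth. Outside this list, Lrrc32, which anchors latent TGF-beta, the Notch ligand Dll1 and the lipase inhibitor Angptl4 had net rises of 3.04, 2.81 and 2.74, called after birth. On the 6 fetal arrays Lrrc32 read at most 12.4 and Dll1 at most 23.4, while Angptl4 ranged from 8.40 to 42.7. Heat shock genes gave 6 of 18 higher and 5 lower (median -0.06): Hspa1a, the inducible HSP70, went from 88.3, 108 and 94.1 to 297, 298 and 302, called after birth, while the mitochondrial chaperones Hspd1 and Hspe1 fell by 1.02 and 0.70, called before birth. Without the arrays numbered 1, 3 heat shock genes were lower.

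The promoters of 2 genes that rose after birth are shown because they hold the letters TGACGTCA, the full cAMP response element, which CREB and ATF proteins bind. The windows run from 250 bases before to 50 bases after the start of the gene in RefSeq (build GRCr8), 1 window for each gene, and the capitals mark the element. Areg lies at chr14:17265592-17265891 on the minus strand, Maff, a small MAF factor that rose by 1.04, at chr7:112792537-112792836 on the plus strand.
Areg: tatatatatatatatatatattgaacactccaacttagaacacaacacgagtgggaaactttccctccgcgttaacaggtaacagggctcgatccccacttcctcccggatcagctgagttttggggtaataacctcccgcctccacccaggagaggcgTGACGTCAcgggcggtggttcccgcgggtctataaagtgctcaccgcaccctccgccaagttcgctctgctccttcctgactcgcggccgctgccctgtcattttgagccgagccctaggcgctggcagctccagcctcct
Maff: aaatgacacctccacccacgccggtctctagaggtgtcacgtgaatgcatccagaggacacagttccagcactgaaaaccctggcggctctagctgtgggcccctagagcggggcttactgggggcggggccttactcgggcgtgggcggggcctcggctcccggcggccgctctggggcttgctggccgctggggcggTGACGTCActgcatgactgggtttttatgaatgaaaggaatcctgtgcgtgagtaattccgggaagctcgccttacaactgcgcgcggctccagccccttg
Of 136 genes that rose after birth alone and had a window, 10 held the element (7.35%); it reads the same on both strands. It stood in 1.91% of all 27457 windows and in 3.15% of the 9592 tested genes with a window. The other 8 holders included Ppp1r15a, which restores translation after stress, and Skil, Pmepa1 and Rcan1, inhibitors of TGF-beta or calcineurin signalling; the rise of Rcan1 was not called without P1 replicate 1 or 2. This motif was chosen after the shares had been seen, and the match says nothing about binding. Without FD22 replicate 2, 6 of 97 such genes held the element (6.19%).

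Genes of cell division fell almost without exception: 68 of 71 were lower at P1, 0 were higher, and the median net change was -1.84 against -0.06 over all genes. Of these falls 50 were called before birth alone, 16 in both steps, 1 after birth alone and 1 in neither. Without FD22 replicate 2, 65 were called before birth alone and 2 in both steps. Mki67, the proliferation marker, read 1408, 990 and 1100 at FD19, 368, 471 and 369 at FD22 and 180, 267 and 237 at P1 (-2.33 ± 0.17, adjusted p = 2.1e-08). Cdk1, the mitotic kinase, went from 861, 952 and 935 through 354, 552 and 337 to 220, 228 and 284 (-1.89 ± 0.20, adjusted p = 1.2e-06), and the clamp partner Pclaf from 1415, 1566 and 1507 to 167, 229 and 219 (-2.85 ± 0.24). For all 3 the stages followed each other without overlap.

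The falls included genes of DNA replication, of the checkpoints and of mitosis. The replication helicase subunits Mcm2 to Mcm7 fell by between 1.17 for Mcm7 and a net change of -1.97 for Mcm6, cyclin A (Ccna2) by 2.84, the checkpoint kinases Bub1b and Ttk by 2.89 and 2.86, the mitotic kinesin Kif15 by 3.07, and the spindle protein Gtse1 fell by 3.27. Members not called were Cdc25b (0.20), Pola2 (0.58, called in 4 of 21 alternatives, with adjusted p = 0.049 under the replicate block) and cyclin D1. Without the arrays numbered 1, 2 genes of the cell division list were called higher. Cyclin D1 (Ccnd1), which couples growth factors to the cycle, read 1397, 1022 and 1089 at FD19, 633, 833 and 734 at FD22 and 1240, 1781 and 1724 at P1: a step of -0.66 and then one of 1.09, both called, with a net change of 0.43 ± 0.18 (adjusted p = 0.09). The net change of Ccnd1 was called in 3 of 21 alternatives.

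The promoters of 2 of these genes are shown because they hold both motifs typical of late cell cycle genes, the CHR element TTTGAA, bound by the DREAM and MMB complexes, and the NF-Y box CCAAT. The window is as above, matches to either motif on either strand are in capitals, and in Mki67 one pair of matches overlaps. Cdk1 lies at chr20:19265043-19265342 on the plus strand and Mki67 at chr1:199952544-199952843 on the minus strand.
Cdk1: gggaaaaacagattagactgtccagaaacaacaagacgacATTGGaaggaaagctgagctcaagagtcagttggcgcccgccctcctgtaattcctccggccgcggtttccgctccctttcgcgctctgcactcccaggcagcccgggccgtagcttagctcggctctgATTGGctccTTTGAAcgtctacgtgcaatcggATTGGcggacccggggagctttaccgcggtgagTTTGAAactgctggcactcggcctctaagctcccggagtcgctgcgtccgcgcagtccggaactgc
Mki67: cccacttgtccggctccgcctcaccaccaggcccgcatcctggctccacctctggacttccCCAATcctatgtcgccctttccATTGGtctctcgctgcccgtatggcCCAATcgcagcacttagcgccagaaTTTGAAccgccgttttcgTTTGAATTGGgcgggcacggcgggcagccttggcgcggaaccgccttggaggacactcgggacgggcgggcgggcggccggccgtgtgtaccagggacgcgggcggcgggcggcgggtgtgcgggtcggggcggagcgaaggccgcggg
Of 54 genes that fell in both steps and had a window, 17 held TTTGAA (31.5%) and 36 held CCAAT (66.7%). The shares were 18.1% and 37.7% over all 27457 windows and 11.3% and 37.8% over the tested genes. Among 752 genes that fell before birth alone the shares were 17.8% and 44.9%, and among 656 that rose before birth alone 9.76% and 35.8%. These motifs, too, were chosen after the shares had been seen, and a match is no evidence of binding. Without FD22 replicate 2, Mki67 and Cdk1 were called before birth alone, and the class that fell in both steps held 9 genes with a window, of which 0 held TTTGAA and 6 held CCAAT.

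Genes that arrest the cycle moved both ways: 5 of 22 were higher and 5 lower, with a median of 0.09, and either count dropped to 3 or fewer in several leave-outs, for example 1 higher without P1 replicate 1 and 3 lower without FD19 replicate 2. Rbl2, a pocket protein of resting cells, rose by 1.01, called before birth, and Cdkn1a (p21) by 1.12 in steps that were not called, a call lost without P1 replicate 1 or FD19 replicate 2. Chromatin genes fell with the cycle, 19 of 29 lower and 1 higher (median -0.64): the replication-coupled methyltransferase Dnmt1 went from 493, 380 and 387 to 171, 188 and 179 (-1.20 ± 0.14), the Polycomb enzyme Ezh2 fell by 1.59 and the helicase Hells by 2.02, while Ezh1, the Polycomb enzyme of resting cells, rose by 0.66. Tet1, a DNA demethylase, fell by 1.67, called after birth.

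Splicing factors were lower in 35 of 51 cases and higher in 0, with a median of -0.65, and 30 of the falls were called before birth alone. Hnrnpm went from 809, 761 and 798 through 408, 460 and 290 to 249, 335 and 300 (-1.41 ± 0.21, adjusted p = 4.2e-05), and Snrpa, of the U1 particle, from 314, 303 and 336 to 108, 88.9 and 124 (-1.54 ± 0.23). FD19 and P1 did not overlap for either. Srsf5, one of the regulatory SR proteins, was the member with the highest net change, 0.36, which was not called.

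Of 73 mitochondrial ribosomal protein genes 33 were lower and 0 higher (median -0.46), led by Mrps27 at -1.39 ± 0.20, and of 85 genes of oxidative phosphorylation 35 were lower and 1 higher (median -0.40). Ndufa11, of complex I, went from 1396, 1307 and 1151 to 551, 606 and 642 (-1.09 ± 0.22, adjusted p = 8.3e-04). The exception was Cox7a1, the cytochrome oxidase subunit of contractile tissue, which rose from 59.0, 88.8 and 69.8 to 136, 156 and 170 (1.04 ± 0.20). Of the falls in these lists, 14 of 33 and 15 of 35 passed over the whole span but in neither step. The same held for 898 of the 1994 lower genes among all those tested.

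Cytosolic ribosomal protein genes, among the brightest on the array, moved little: 5 of 45 were lower and 0 higher, below the background of 17.2%, with a median of -0.20. That count was 14 with the replicate block, 0 after quantile normalization and 0 without the arrays numbered 1. Initiation factors gave 5 of 49 lower and 1 higher (median -0.14), 2 lower without FD19 replicate 1, with steps that pulled apart at the median (-0.29 and then 0.15). Proteasome genes were lower in 12 of 36 cases (median -0.32), 10 of them before birth alone; the one that rose was Psmb8, an immunoproteasome subunit, from 29.2, 34.9 and 31.6 to 67.3, 54.9 and 54.6 (0.78 ± 0.17). Endoplasmic reticulum and stress genes gave 6 of 29 higher, 3 without FD19 replicate 1, and 11 lower (median -0.24): the chaperone Hspa5 fell by 0.95 and the serine synthesis enzymes Psat1 and Phgdh by 1.59 and 1.41, while Ppp1r15a rose by 1.02, called after birth.

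**Figure D4:**
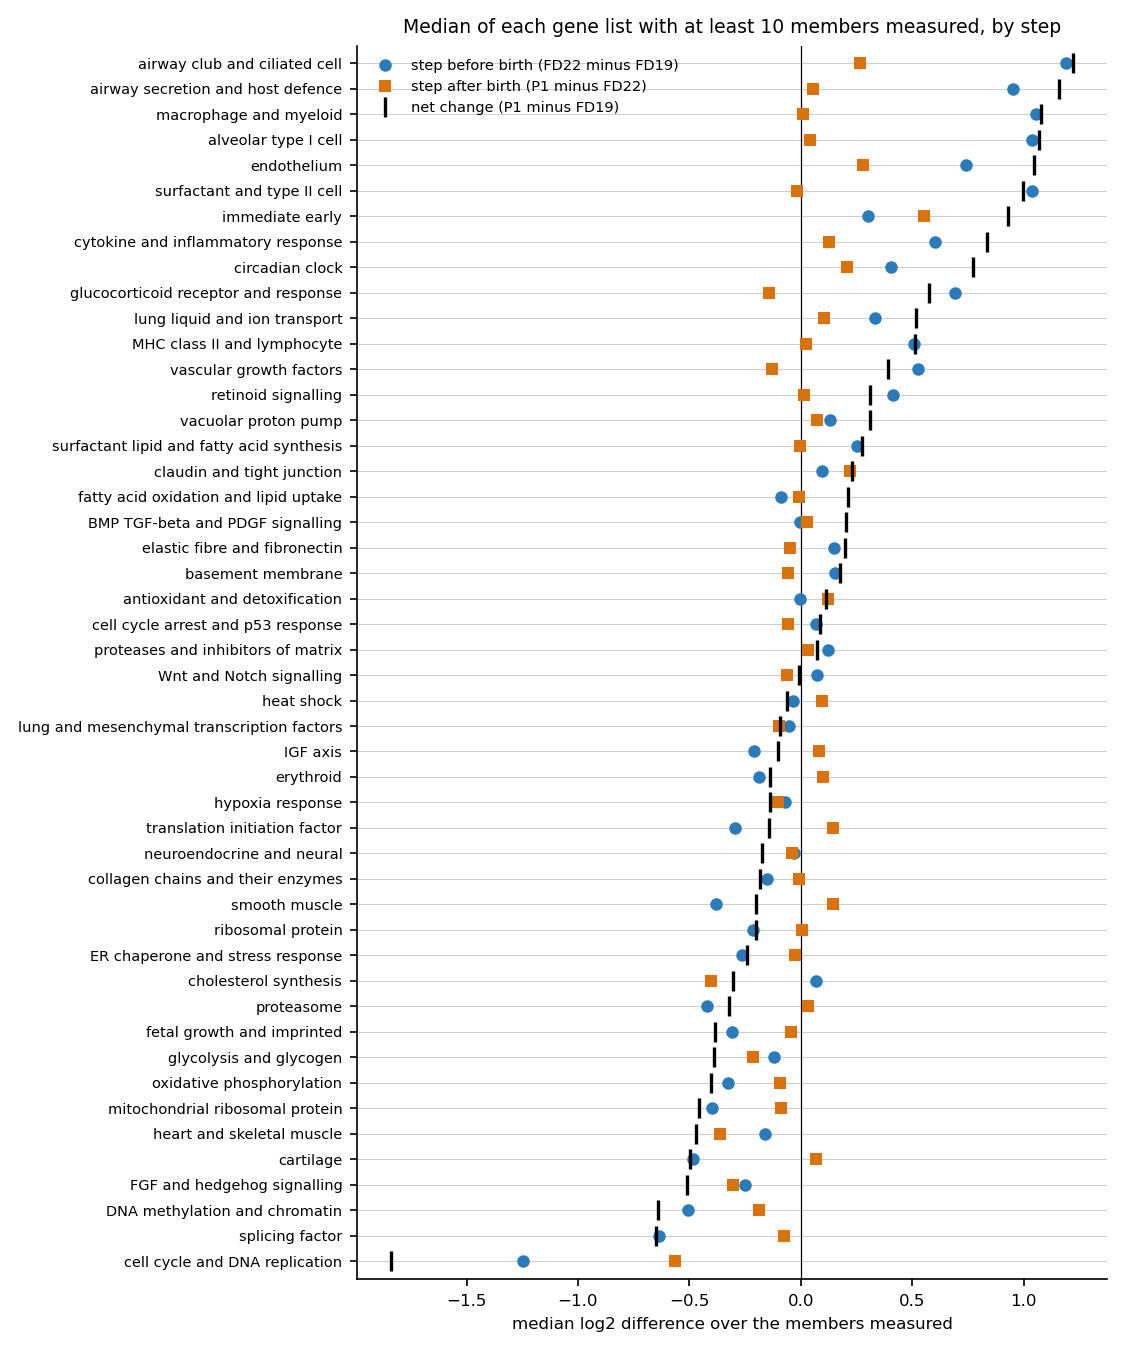
Median log2 difference over the measured members of each list with at least 10 of them: circles show the step before birth, squares the step after birth and bars the net change. Epithelial, myeloid, splicing and cell cycle lists had their larger median step before birth, whereas immediate early genes (0.30 and 0.55) and cholesterol synthesis (0.07 and -0.40) had their larger median step after birth.

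Fetal growth genes, many of them imprinted, were lower in 9 of 22 cases and higher in 1 (median -0.39). Igf2, the main fetal growth factor, went from 3776, 2635 and 2820 through 1488, 1522 and 1441 to 1612, 1287 and 1440 (-1.07 ± 0.17, adjusted p = 9.3e-05), and the linked noncoding RNA H19 fell by 0.87, both called before birth; the call of H19 was lost without FD19 replicate 1. The adaptor Grb10 fell from 3024, 2914 and 2818 to 1212, 1137 and 1105 (-1.34 ± 0.12). Ndn and Mest fell by 1.42 and 0.79, called after birth alone. Dlk1 ran the other way, from 581, 546 and 466 to 1677, 843 and 1040 (1.10 ± 0.36, adjusted p = 0.03), a call lost in 6 of 21 alternatives. In the IGF axis 4 of 14 genes were higher, 2 without the arrays numbered 1, and 3 lower, 5 with the replicate block (median -0.10): Igfbp6, Igfbp7 and Igfbp3 rose by 1.23, 0.85 and 0.74, the last not called without FD19 replicate 1, P1 replicate 1 or P1 replicate 3. Igf1 read 1738, 1660 and 1810 against 1010, 1396 and 1297 without passing (-0.50 ± 0.19, adjusted p = 0.06, and 0.0066 with the replicate block); 2 of the 3 Igf1 probe sets were called.

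Signals of branching growth were lower at P1 in 8 of 21 cases and higher in 1 (median -0.51). Gli1, the transcriptional readout of hedgehog signalling, fell from 140, 99.0 and 72.8 to 9.10, 13.5 and 12 (-2.65 ± 0.35, adjusted p = 1.5e-05), mostly before birth, and the hedgehog receptor Smo and factor Gli2 fell by 1.04 and 0.56, the latter not called without P1 replicate 1. Fgfr2, the epithelial FGF receptor, fell in both steps from 1283, 1164 and 1434 to 687, 770 and 552 (-0.95 ± 0.13) by its brightest probe set. Of its 4 probe sets 1 was called, and without FD22 replicate 2 neither step was called. The ligands Shh (-1.17) and Fgf10 (-0.36) were dim and not called, though Shh was called in 1 of 20 alternatives.

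BMP, TGF-beta and PDGF genes gave 8 of 34 higher and 4 lower (median 0.20), 2 lower without FD19 replicate 1, FD19 replicate 3 or P1 replicate 2. Bmp2 and the inhibitor Smad6 had net rises of 1.28 and 0.96, called after birth, and Bmp6 one of 1.46, called before it. Bmp5 had a net fall, called after birth (-1.13), and Tgfb2 one called before it (-1.03). Wnt and Notch genes gave 7 of 35 higher and 4 lower (median -0.01). Wnt2, a mesenchymal ligand of the early lung, held at 536, 498 and 387 at FD22 against 479, 417 and 410 at FD19 and then fell to 186, 260 and 202 (-1.0 ± 0.20). Lef1, a nuclear factor of the Wnt pathway, fell by 0.76, called after birth. The secreted inhibitor Wif1 rose by 1.09, called before birth, and the feedback target Axin2 by 0.85.

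Among transcription factors of lung epithelium and mesenchyme 5 of 27 were higher, 3 without the arrays numbered 1, and 7 lower (median -0.10). Foxp2, a repressor in distal tip progenitors, read 1373, 1246 and 1191, then 441, 526 and 386, then 244, 291 and 251 (-2.25 ± 0.12, adjusted p = 2.4e-09). Sox11 fell by 1.51, called before birth, and Mycn, which drives progenitor division, by 1.33 in steps of -0.64 and -0.69 that were not called. The mesenchymal factors Foxf1 and Tcf21 rose by 0.81 and 0.63 and the endothelial Sox17 by 1.24. Retinoid genes were higher in 5 of 20 cases and lower in 0 (median 0.31), all 5 called before birth, 3 without FD22 replicate 2: the retinoic acid hydroxylase Cyp26b1 rose by 1.43 and the synthesis enzyme Rdh10 by 1.36.

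Matrix genes changed selectively. The chains of fibrillar collagen I and III stayed bright, with Col1a1 at 4685, 4102 and 4566 at FD19 and 4071, 4101 and 3916 at P1 (-0.14 ± 0.11, adjusted p = 0.39). Of 29 genes of collagen chains and their enzymes 2 were higher and 8 lower (median -0.18), 5 lower without FD19 replicate 1 or P1 replicate 3: Col18a1 fell by 1.73 and the crosslink-forming Plod2 by 0.86. Cartilage genes were lower in 5 of 14 cases and higher in 0 (median -0.50), all before birth, with Mia, a secreted chondrocyte protein, at 430, 415 and 424 and then 58.3, 53.8 and 53.6 (-2.82 ± 0.18) and Col2a1 at 1389, 557 and 614 and then 121, 86.4 and 157 (-2.67 ± 0.41). Acan and Matn1, the cartilage proteoglycan and matrilin, were dim, with means of 63.3 and 61.5 at FD19 and 62.8 and 59.9 at P1. Their net changes were 0.01 and 0.02.

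Elastic fibre genes exchanged members, with 5 of 21 higher and 6 lower (median 0.20). Elastin (Eln) rose from 1831, 1279 and 1378 to 2796, 2458 and 2239 (0.75 ± 0.14) and the assembly protein Fbln5 by 1.18, whereas the fetal fibrillin Fbn2 fell from 1864, 1526 and 1506 to 519, 668 and 608 (-1.44 ± 0.14) and Emilin1 by 0.92. In basement membrane 6 of 24 were higher and 4 lower (median 0.18), 2 lower without the arrays numbered 1: the laminin chain Lamb2 rose by 1.07 and Lamb1 fell by 0.51. Col4a4 rose by 1.75 and Col4a6 fell by 0.93. Of 20 proteases and inhibitors 6 were higher, among them the plasminogen activator Plat (1.74) and the inhibitor Timp3 (1.54), and 4 lower (median 0.07); 1 was lower without FD19 replicate 2 or P1 replicate 2.

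Smooth muscle genes gave 7 of 22 lower and 4 higher (median -0.20), 2 lower without FD19 replicate 1 or P1 replicate 3, 4 lower after median centring and 2 higher without several single arrays, P1 replicate 1 among them. Myocd, the coactivator that sets the contractile programme, fell from 394, 523 and 543 to 123, 153 and 160 (-1.70 ± 0.24, adjusted p = 3.4e-05) before birth. Acta2, smooth muscle actin, fell before birth (-0.61), a step that was not called without FD22 replicate 2. The net change of Acta2, -0.48 ± 0.19, was not called (adjusted p = 0.078, and 0.0072 with the replicate block). Csrp1 rose by 1.01, called after birth. Neuroendocrine and neural genes gave 4 of 13 lower, 2 without FD19 replicate 1 or P1 replicate 2, and 1 higher (median -0.17), with Ddc, which makes serotonin and dopamine, at 386, 381 and 380 and then 99.1, 118 and 89.7 (-1.86 ± 0.15).

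The red cell genes showed the loss of the embryonic globins. Hbe1, an embryonic beta-type chain, went from 2674, 2839 and 3238 at FD19 through 326, 682 and 753 to 170, 140 and 376 at P1 (-3.77 ± 0.34, adjusted p = 2.3e-07), and Hbz, the embryonic alpha-type chain, from 98.3, 125 and 116 to 4.5, 2.10 and 4.70 (-3.69 ± 0.42). Adult Hbb was at 6934, 7334 and 7832 and then 5387, 7618 and 7809, which overlap (-0.10 ± 0.20). Of 19 erythroid genes 6 were lower, 3 without FD19 replicate 1, P1 replicate 1 or P1 replicate 2, and 3 higher (median -0.14), among the latter Alas2, the first enzyme of red cell haem synthesis (0.66, not called without FD19 replicate 3 or P1 replicate 3). Of 6 liver and thymus genes measured, 0 were called by limma in either direction (median -0.04), and 1 was higher at an unadjusted p under 0.05. The count was 1 higher with the 6 arrays fitted alone, with either block, and without FD22 replicate 2.

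Targets of hypoxia-inducible factors, which low oxygen raises, were lower in 10 of 28 cases and higher in 5 (median -0.14). The prolyl hydroxylase Egln3 held at 253, 331 and 313 and 293, 238 and 222 in the fetuses and fell to 108, 109 and 118 in the newborns (-1.37 ± 0.16, adjusted p = 3.5e-06), and Ankrd37 and Ndrg1 fell by 1.56 and 1.36, called after birth. Genes of glycolysis and glycogen were lower in 13 of 30 cases and higher in 0 (median -0.39): Pgk1, the phosphoglycerate kinase, went from 2439, 2282 and 2524 through 1412, 1474 and 1176 to 1293, 1012 and 1222 (-1.04 ± 0.14), and glycogen synthase Gys1 fell by 1.05, called after birth. Pfkfb3, which speeds glycolysis but is not in that list, rose by 1.57, called before birth.

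Cholesterol synthesis was lower in 10 of 23 cases and higher in 3 (median -0.31), and 6 of the falls were called after birth alone, 2 without FD22 replicate 2. Mvd, of the mevalonate pathway, read 70.8, 57.5 and 60.2 at FD19, 56.6, 53.1 and 20.7 at FD22 and 6.50, 9.00 and 8.10 at P1 (-2.35 ± 0.33, adjusted p = 2.6e-05), and Idi1 went from 495, 569 and 509 to 152, 212 and 213 (-1.43 ± 0.20). Dhcr7 and Sqle fell by 1.58 and 1.24. The 3 that rose, the sterol exporters Abca1 (1.02) and Abcg1 (1.12) and the feedback protein Insig1 (0.68), did so before birth.

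Of 27 genes of fatty acid oxidation and lipid uptake, 8 were higher and 3 lower (median 0.21). Cpt1a, which admits fatty acids to mitochondria, read 179, 116 and 165, then 200, 218 and 224, then 670, 821 and 631 (2.18 ± 0.17, adjusted p = 4.7e-08), called after birth, while the fatty acid transporter Cd36 rose before birth from 169, 205 and 181 to 702, 957 and 681 (net 2.51 ± 0.21). The beta-oxidation enzymes Hadh and Decr1 fell by 0.60 and 0.57 in steps that were not called, and the lipoprotein receptor Vldlr fell by 1.12 with the step after birth called. Antioxidant genes gave 13 of 37 higher and 5 lower, 3 without the arrays numbered 1 (median 0.11): the plasma peroxidase Gpx3 rose from 1190, 1048 and 1130 to 2903, 2247 and 3063 (1.27 ± 0.18), the transferase Gsta1 by 1.73 and Mgst1 by 1.01, Prdx4 fell by 1.15, and Sod2 (0.11), catalase (Cat, 0.18) and Nqo1 (0.04) were not called.

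Some genes changed in opposite directions before and after birth. In 64 genes both steps were called in opposite directions and the net change was not (which does not show a return to the first level), 28 up and then down and 36 down and then up, and in 403 more the step before birth was called without a called second step or net change. Hhip, the hedgehog-binding inhibitor, read 129, 178 and 212 at FD19, 517, 524 and 344 at FD22 and 327, 226 and 222 at P1 (net 0.57 ± 0.21, adjusted p = 0.058, called in 4 of 21 alternatives, steps 1.39 and -0.82), above FD19 without overlap. Slc1a5, the glutamine transporter, ran the other way, from 176, 194 and 175 to 77.1, 70.4 and 98.1 and back to 205, 237 and 260 (net 0.35 ± 0.20, adjusted p = 0.22), also above FD19 without overlap. Timp1, Il33 and the epithelial factor Cebpa, whose FD19 and P1 values overlapped, had net changes of -0.13, -0.04 and 0.20. Without the array with liver transcripts, Hhip, Il33 and Cebpa kept a called first step but not a called second one. The count of 64 fell to between 31 and 42 without any 1 of the 3 P1 arrays, the 3 FD22 arrays or FD19 replicate 1.

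In 10 genes the reversal left a net change. Tnfrsf12a, the TWEAK receptor, fell from 84.9, 72.4 and 90.7 to 63.6, 43.2 and 38.3 before birth and then rose to 492, 479 and 344 (net 2.32 ± 0.25, adjusted p = 1.4e-06). Ddit4, a stress-induced inhibitor of mTOR, rose from 639, 697 and 681 to 1362, 948 and 902 and fell to 388, 265 and 224, below the FD19 level without overlap (-1.22 ± 0.20, adjusted p = 1.2e-04). The cold-induced RNA-binding protein Rbm3 fell from 3239, 3088 and 3474 to 1520, 1625 and 1116 and recovered in part to 2612, 2383 and 2209 (-0.45 ± 0.12, adjusted p = 0.012), a net call lost without FD19 replicate 3 or P1 replicate 3 and after quantile normalization. The neurite protein Nrn1 had steps of 2.56 and -1.03, and endothelial Emcn steps of 0.99 and -0.55, with a net call lost without P1 replicate 1 or any 1 of the FD19 arrays. This class held 18 genes with the replicate block but 4 without FD19 replicate 1, 2 or 3, 5 without P1 replicate 1 and 6 without P1 replicate 2. Without FD22 replicate 2, the fall of Tnfrsf12a before birth was not called.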

How the data were processed

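The authors deposited 1 table of probe set intensities on a linear scale for the 18 arrays, and per the submitters' processing notes GCOS 1.4 was used; the algorithm behind the signal is not given in the sources used here. The trimmed mean intensity was 150 on every array, so levels are relative to each array's total. Of 31042 probe sets that are not controls, the 21675 above the 40th percentile (40.8) on at least 3 arrays were kept. Values were taken as log2(signal + 5.5), 5.5 being the 10th percentile, and 6 group means were fitted over the 18 arrays with limma 3.58.1 (R 4.3.3, eBayes with trend, tested on simulated data), with Benjamini-Hochberg adjustment over all kept probe sets. A called change has an adjusted p under 0.05. Probe sets were named through GEO's platform annotation, in which 20826 had 1 gene, 436 several and 9780 none. The brightest probe set stood for a gene. Array number, 3 a group, limits the precision. The p-values rest on the spread between arrays of the same group, pooled over the 6 groups, polysomal arrays included. Total and polysomal arrays of the same stage and replicate number were fitted as independent. With each such pair as a random block, the correlation within pairs was 0.310 and 5657 probe sets were called.

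Genes were named by size (the 12 largest non-overlapping rises and falls, the 3 largest of each list and direction, the 6 largest of each timing class, and 13 genes of lung biology), and 75 more were picked after their values were seen. The comparison, the 49 lists and the tests were chosen with earlier results of these data known. Promoter windows are from RefSeq (GRCr8).

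Arrays of FD19 and P1 with the same replicate number deviated together from their group means (correlations 0.313, 0.119 and 0.134), although FD19 replicate 2 and P1 replicate 3 did so too (0.150), and the number was also fitted as a block; the pairing comes from the data alone, since the labels name no shared litter or day. Scaling, offset, filter, variance prior, arrays fitted and each left-out array were varied.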

Additional observations from a re-analysis of the deposited data

How the results depend on the processing

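Under the 21 alternatives the net change was called for 4067 (without the arrays numbered 1) to 6330 probe sets (with the replicate block) against 5671, leaving out 1 array gave 4467 to 5765, and none of the called genes named here changed sign. Of 185 called genes named, 166 stayed called in every alternative run, and of 37 named genes not called, 9 gained a call in some alternative. The replicate block changed the counts and calls given beside the ribosomal, muscle, IGF axis and partly reversed genes. It gave calls for Acta2, Fasn, Igf1 and Pola2, ended that of Dbp and changed no other call of a gene named here. Counts of other lists shifted as well. For example, 48 genes of oxidative phosphorylation were lower with the block and 24 without the arrays numbered 1, against 35. The timing classes were less stable. Without the variance trend 85 genes were called in both steps and 5 partly reversed, and the replicate block gave 18 partly reversed. Without the arrays numbered 1 the difference between the steps was called for 329 probe sets, and the classes held 1126 genes before birth, 167 after birth, 46 in both steps, 6 partly reversed and 24 reversed. Leaving out 1 array gave 303 to 679 probe sets for the difference between the steps, and 1214 to 1628 genes before birth, 171 to 302 after birth, 40 to 101 in both steps, 1015 to 1993 in neither step, 4 to 10 partly reversed and 31 to 49 reversed. Fits of 2 arrays in a stage assume that the pair varies like the other groups. The cause of these shifts was not tested. Dim genes such as Atp6v1c2 at FD19 lie near background, where signal limits the size of a fold.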
